A study of Homo sapiens with 6 samples.

Results

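The calcium/calmodulin-dependent kinase kinases, the catalytic subunits of AMPK and 6 kinases related to AMPK were followed in PANC1 cells, an established human line from a carcinoma of the pancreatic duct, after treatment with gemcitabine. The group was set by gene name and holds 10 of the 20461 genes in the deposited RNA-seq table: CAMKK1, CAMKK2, PRKAA1, PRKAA2, NUAK1, NUAK2, BRSK1, SIK1, SIK2 and SIK3. These names were picked with their RNA values in both conditions already known, so the change of each gene after gemcitabine is a description: calls from the fit over all genes are named below only to sort the kinases, with no p-value, and are no evidence for them. RNA-seq covered 2 biological replicates given gemcitabine, a nucleoside analogue, at 50 nM over 48 h, and 2 replicates given the vehicle (0.1% DMSO) as controls. DNaseI-seq, which maps open chromatin, was done on 1 vehicle and 1 gemcitabine library of the same line and has no replicate. One line, one dose and one time limit what the groups stand for.

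AMPK is a sensor of low cellular energy, built of a catalytic alpha subunit with a beta and a gamma subunit, and it is switched on when a kinase upstream phosphorylates the activation loop of alpha. LKB1, the product of STK11, does this when AMP is high, and CAMKK2 does it when calcium rises. LKB1 also activates a family of kinases whose catalytic domains resemble that of AMPK, among them the NUAK, BRSK and SIK kinases. SIKs phosphorylate the CRTC coactivators and class IIa histone deacetylases and so hold back genes driven by the transcription factor CREB, and SIK1 is itself a gene induced by cAMP and CREB.

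Promoter sequence is shown first for the genes whose upstream region bears on the results: the SIK genes, because SIK1 is known as a CREB-responsive gene, and NUAK2, because it was the member with a DNaseI peak over its start site. The sequences are the 250 bases before the RefSeq start (GRCh38.p14), read 5′ to 3′ along the gene's strand. Each matched hg19 exactly, so the coordinates given are on hg19. Capitals in the SIK sequences mark the core motif of the cAMP response element, TGACG or its complement CGTCA, searched on both strands. Capitals in the NUAK2 sequence mark the CCAAT box, CCAAT or its complement ATTGG.
SIK1, chr21:44847012-44847261, minus strand: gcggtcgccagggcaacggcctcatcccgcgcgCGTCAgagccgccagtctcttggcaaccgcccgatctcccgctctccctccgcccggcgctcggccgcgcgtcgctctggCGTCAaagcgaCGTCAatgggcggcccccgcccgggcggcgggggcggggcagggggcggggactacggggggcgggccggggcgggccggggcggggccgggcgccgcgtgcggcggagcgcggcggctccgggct
SIK2, chr11:111472923-111473172, plus strand: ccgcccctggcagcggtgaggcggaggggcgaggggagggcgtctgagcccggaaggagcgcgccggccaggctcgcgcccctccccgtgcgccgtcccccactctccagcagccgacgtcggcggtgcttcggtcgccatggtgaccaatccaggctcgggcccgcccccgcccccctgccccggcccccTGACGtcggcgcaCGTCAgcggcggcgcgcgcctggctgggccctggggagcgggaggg
SIK3, chr11:116969145-116969394, minus strand: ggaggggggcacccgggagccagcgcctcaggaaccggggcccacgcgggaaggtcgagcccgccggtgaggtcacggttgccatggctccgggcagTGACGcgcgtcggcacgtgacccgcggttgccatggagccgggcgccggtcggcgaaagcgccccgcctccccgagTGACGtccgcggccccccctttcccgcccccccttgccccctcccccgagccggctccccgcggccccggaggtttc
NUAK2, chr1:205290874-205291123, minus strand: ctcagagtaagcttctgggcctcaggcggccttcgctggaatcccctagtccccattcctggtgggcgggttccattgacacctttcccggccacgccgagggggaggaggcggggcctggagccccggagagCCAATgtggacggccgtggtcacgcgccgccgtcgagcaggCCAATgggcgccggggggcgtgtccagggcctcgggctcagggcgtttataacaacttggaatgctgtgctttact

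All 3 SIK promoters carried the core motif, SIK1 with 3 copies and SIK2 and SIK3 with 2 each. None of the other 8 promoters of the group carried it (CAMKK1 has 2 promoters in the table, so there were 11 in all). In all 3 of the 11 promoters carried it, and of 34796 RefSeq promoters of the same length 21.2% held at least 1 core motif. The motif was chosen with earlier results of these data known, so nothing is read from this count. The core motif contains a CG pair, and the SIK promoters were rich in these bases. Their GC content was 82.4% for SIK1, 80.0% for SIK2 and 78.0% for SIK3, against a median of 58.0% over all promoters. High GC content was not particular to the SIK promoters, and its part in the motif counts was not tested. PRKAA2 (83.2%), CAMKK2 (82.8%), PRKAA1 (80.8%) and NUAK1 (79.6%) were about as rich and had no core motif. Of the CAMKK1 promoters, 1 was as rich and the other had 58.0%. NUAK2 (66.4%) and BRSK1 (63.2%) were lower. The full element TGACGTCA, which contains the core motif on both strands, was in none of the 11 and in 1.64% of all promoters. The GC box (GGGCGG) was in 10 of the 11 and in 42.6% of all, and the CCAAT box was in 4 of the 11 and in 32.0% of all. The E box (CACGTG) was in SIK3 alone and in 6.31% of all promoters, and the AP-1 site (TGANTCA) was in none of the 11 and in 6.59% of all. A match is a string of letters in the window and was not tested for binding.

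Values below come from the estimated number of fragments on each gene and from FPKM, a level estimated by Cuffdiff that takes account of transcript length and library depth. FPKM is the scale on which levels of different genes can be compared. It is not a fixed multiple of the fragments of a gene. BRSK1, for example, had 60 and 68 fragments but 1.93 and 3.50 FPKM in vehicle, so the scales can differ in the size of a change. The libraries held 13194533 to 15766237 fragments on genes. The ductal markers KRT7, KRT8 and KRT18 stood at 336 FPKM or more in every library, while KRT19 was low. The ductal markers also moved with treatment. KRT19 had 3.22 and 3.05 FPKM in vehicle and 5.83 and 6.91 FPKM in gemcitabine, a log2 fold change of fragments of 1.13 (edgeR adjusted p = 0.000645), and it met the call rule given below. KRT8 (0.29, edgeR adjusted p = 0.0032), KRT18 (0.27, edgeR adjusted p = 0.00586) and KRT7 (-0.18, edgeR adjusted p = 0.0426) met the adjusted p but not the fold limit. The summed FPKM of the 4 markers was 2361 to 2517 in vehicle and 2545 to 2618 in gemcitabine, and the part of these shifts in the results for the kinases was not tested. CD3E, PRSS1, INS and GCG had no fragment in any library, and the other leukocyte, endothelial and acinar markers measured had 9 fragments or fewer in each, of which PTPRC had 4 and 2 in vehicle and 9 and 5 in gemcitabine.

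All 10 kinases were detected in every library. In vehicle-treated cells SIK1 was the highest on the FPKM scale with 126 ± 8.12 FPKM (SD, n = 2), followed by PRKAA1 with 69.2 ± 7.34 FPKM. CAMKK2, SIK2, NUAK1 and SIK3 lay between 10.5 and 23.1 FPKM on average, CAMKK1, PRKAA2 and NUAK2 between 4.35 and 7.32 FPKM, and BRSK1 was lowest at 2.71 ± 1.11 FPKM. The libraries of neighbours in this order did not overlap, except those of SIK2 and NUAK1. After gemcitabine PRKAA1 was highest with 84.8 ± 6.65 FPKM and SIK1 second with 71.6 ± 3.62 FPKM, and CAMKK1 moved from rank 7 to rank 10 with 3.60 ± 0.295 FPKM. NUAK2 moved up from rank 9 to rank 7 and BRSK1 from rank 10 to rank 8. No neighbours overlapped in the order after gemcitabine.

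**Figure D1:**
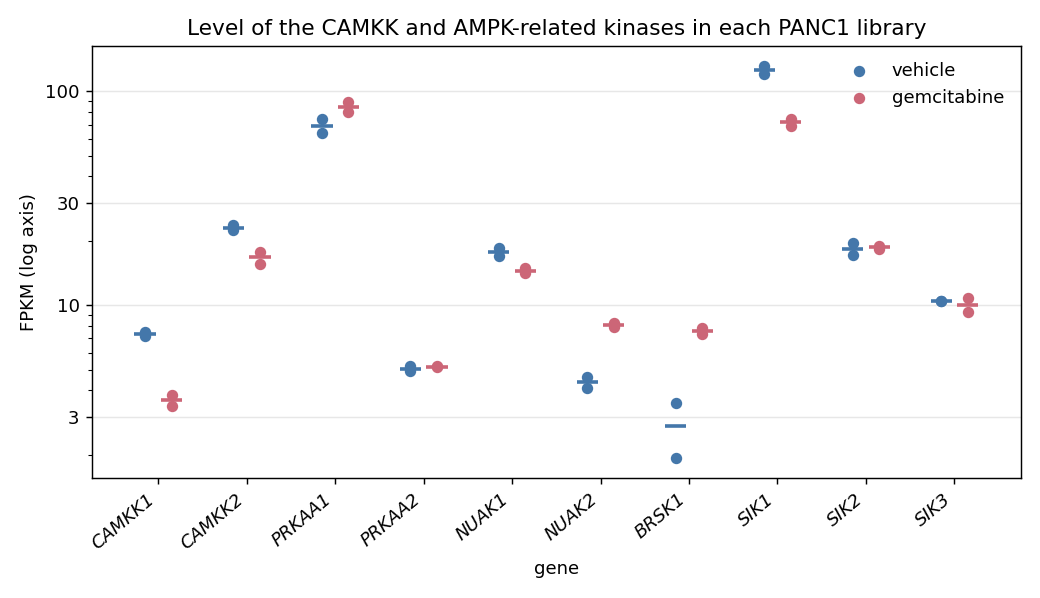
FPKM of each kinase on a log axis in the 2 vehicle (blue) and 2 gemcitabine (red) libraries, with points for libraries and short lines for means. CAMKK1, CAMKK2 and SIK1 sit lower after gemcitabine, NUAK2 and BRSK1 sit higher, and the points of PRKAA2, SIK2 and SIK3 overlap between the conditions.

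A gene was called when the quasi-likelihood test of edgeR gave an adjusted p under 0.05, its fold change was over 1.5, its mean was at least 0.1 FPKM in 1 condition and the means differed by at least 1 FPKM. By this rule 10.1% of the 14854 genes tested were called, 5.69% higher and 4.43% lower after gemcitabine. Of the 10 kinases 5 were called, with NUAK2 and BRSK1 higher and CAMKK1, CAMKK2 and SIK1 lower, a count from which nothing is read because the kinases were chosen on this comparison. The median change of the group was -0.18 on the log2 scale of fragments, and that of all genes tested was 0.01. By the adjusted p alone 2 kinases were higher and 5 lower, beside 38.5% of all genes in either direction, and again nothing is read from it. Fragments scaled to depth did not overlap between the conditions for 9 of the 10 kinases and for 69.7% of all genes tested. In bulk RNA, fewer cells of a kind and less RNA per cell cannot be told apart.

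The CAMKK genes were both lower after gemcitabine. CAMKK1 (ENSG00000004660, chr17:3763609-3798185, minus strand) counted 441 and 470 fragments after vehicle and 205 and 185 after gemcitabine. On the FPKM scale it stood at 7.47 and 7.17 in vehicle and at 3.80 and 3.39 in gemcitabine. Both gemcitabine libraries were at about the same low level, well apart from both vehicle libraries. The log2 fold change of fragments was -1.11 (SE 0.10), a level 2.16-fold lower.

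CAMKK2 (ENSG00000110931, chr12:121675478-121736111, minus strand), the kinase that couples calcium to AMPK, had 1296 and 1334 fragments in vehicle and 706 and 767 in gemcitabine. Its FPKM was 23.8 and 22.4 in vehicle and 15.7 and 17.8 in gemcitabine. The conditions were separate on both scales, but the sizes differed: the log2 fold change was -0.72 (SE 0.07) for fragments and -0.46 for the ratio of mean FPKM, which is under a fold of 1.5. Over 11976 genes with a mean of at least 1 FPKM, the median log2 ratio of FPKM was 0.11, so the FPKM scale places genes somewhat higher after gemcitabine than the scaled fragments do. CAMKK2 made up 76.1% and 75.7% of the summed FPKM of the CAMKK genes in vehicle and 80.5% and 84.0% in gemcitabine. The sum itself was 31.2 and 29.6 FPKM in vehicle and 19.5 and 21.2 FPKM in gemcitabine.

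The catalytic subunits of AMPK were not called. PRKAA1 (ENSG00000132356, chr5:40759491-40798476, minus strand), which encodes alpha1, had 2939 and 3197 fragments in vehicle and 2896 and 2751 in gemcitabine, and its log2 fold change of fragments was -0.01 (SE 0.07). Scaled to depth, these fragments overlapped between the conditions. Its FPKM, in contrast, was 64.0 and 74.4 in vehicle and 89.5 and 80.1 in gemcitabine, without overlap, a log2 ratio of means of 0.29. The fragments thus gave PRKAA1 no direction, as the change was smaller than its SE, while its FPKM was higher after gemcitabine.

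PRKAA2 (ENSG00000162409, chr1:57110987-57181008, plus strand), which encodes alpha2, had 735 and 836 fragments in vehicle and 700 and 672 in gemcitabine, with a log2 fold change of -0.08 (SE 0.08). Its FPKM was 4.94 and 5.18 in vehicle and 5.22 and 5.12 in gemcitabine, and these values overlapped, with a log2 ratio of means of 0.03 that has the opposite sign. PRKAA1 held 92.8% and 93.5% of the summed alpha FPKM in vehicle and 94.5% and 94.0% in gemcitabine. In these cells alpha1 was the main catalytic subunit at the RNA level in both conditions.

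The NUAK kinases, which act on myosin phosphatase and cell adhesion, moved apart. NUAK2 (ENSG00000163545, chr1:205271191-205290873, minus strand) had 245 and 236 fragments in vehicle and 399 in each gemcitabine library. Its FPKM was 4.59 and 4.11 in vehicle and 7.90 and 8.24 in gemcitabine, with both treated libraries above both vehicle libraries. The log2 fold change of fragments was 0.84 (SE 0.10), which is 1.79-fold. NUAK1 (ENSG00000074590, chr12:106457123-106532732, minus strand) had 1368 and 1486 fragments in vehicle and 997 and 1098 in gemcitabine, with 17.0 and 18.5 against 14.1 and 14.9 FPKM. Its log2 fold change was -0.33 (SE 0.07), short of the fold limit, with no overlap between the conditions.

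The summed level of the NUAK genes stayed in a narrow range while its makeup differed. Summed FPKM of the NUAK genes was 21.6 and 22.6 in vehicle and 22.0 and 23.2 in gemcitabine. NUAK2 made up 21.3% and 18.2% of it in vehicle and 35.9% and 35.5% in gemcitabine.

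BRSK1 (ENSG00000160469, chr19:55793440-55823930, plus strand), a kinase best known for neuronal polarity, was the lowest member in vehicle and showed the largest rise of the group. It had 60 and 68 fragments in vehicle and 132 and 133 in gemcitabine, a log2 fold change of 1.16 (SE 0.17), or 2.24-fold. Its FPKM was 1.93 and 3.50 in vehicle and 7.36 and 7.84 in gemcitabine. The vehicle libraries were close in fragments but far apart in FPKM, so the FPKM ratio (1.49 on the log2 scale) is the less precise of these values. BRSK2, its paralogue, had 22 to 31 fragments in the 4 libraries and stayed under 1 FPKM in each, with a log2 fold change of 0.11 (SE 0.33, edgeR adjusted p = 0.813).

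SIK1 (ENSG00000142178, chr21:44834363-44847011, minus strand), the CREB-induced member of its family, carried the most fragments of the group and was lower after gemcitabine. It had 9867 and 9800 fragments in vehicle and 4683 and 4857 in gemcitabine. Its FPKM was 132 and 121 in vehicle and 69.1 and 74.2 in gemcitabine. All 4 libraries fell cleanly by condition, with a log2 fold change of fragments of -0.93 (SE 0.07), a level 1.91-fold lower.

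SIK2 (ENSG00000170145, chr11:111473173-111601579, plus strand) had 1650 and 1829 fragments in vehicle and 1303 and 1463 in gemcitabine, a log2 fold change of -0.22 (SE 0.08). Its FPKM was 17.1 and 19.5 in vehicle and 18.9 and 18.4 in gemcitabine, which overlap and give a log2 ratio of means of 0.03, again of the opposite sign. SIK2 shares 3948 bases with PPP2R1B on the opposite strand, and no source used here states that reads were counted by strand, so its fragments may include some of that gene. SIK3 (ENSG00000160584, chr11:116714118-116969153, minus strand) had 510 and 577 fragments in vehicle and 483 and 430 in gemcitabine, a log2 fold change of -0.14 (SE 0.09), with 10.5 FPKM in both vehicle libraries and 10.8 and 9.28 FPKM in gemcitabine. Neither SIK2 nor SIK3 was called. SIK3 overlaps the antisense RNA APOA1-AS over 12617 bases, and that RNA is not among the genes of the table.

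SIK1 was the highest of its family in every library. The summed SIK level was 160 and 151 FPKM in vehicle and 98.8 and 102 FPKM in gemcitabine. SIK1 made up 82.7% and 80.1% of it in vehicle and 69.9% and 72.8% in gemcitabine. SIK2 made up 10.7% and 13.0% in vehicle and 19.2% and 18.1% in gemcitabine.

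**Figure D2:**
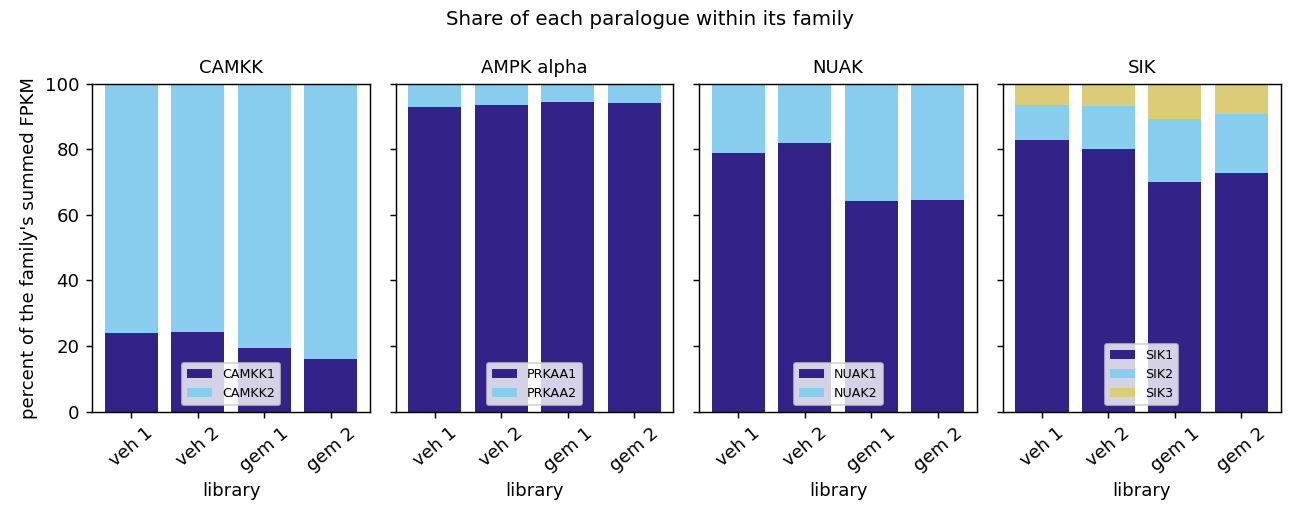
Each bar is 1 library (veh, vehicle; gem, gemcitabine) and shows the share of each paralogue in the summed FPKM of its family, in percent. NUAK2 takes 35.9% and 35.5% of the NUAK sum after gemcitabine against 21.3% and 18.2% in vehicle, SIK1 falls below 73% of the SIK sum, and PRKAA1 stays above 92% of the alpha sum.

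**Figure D3:**
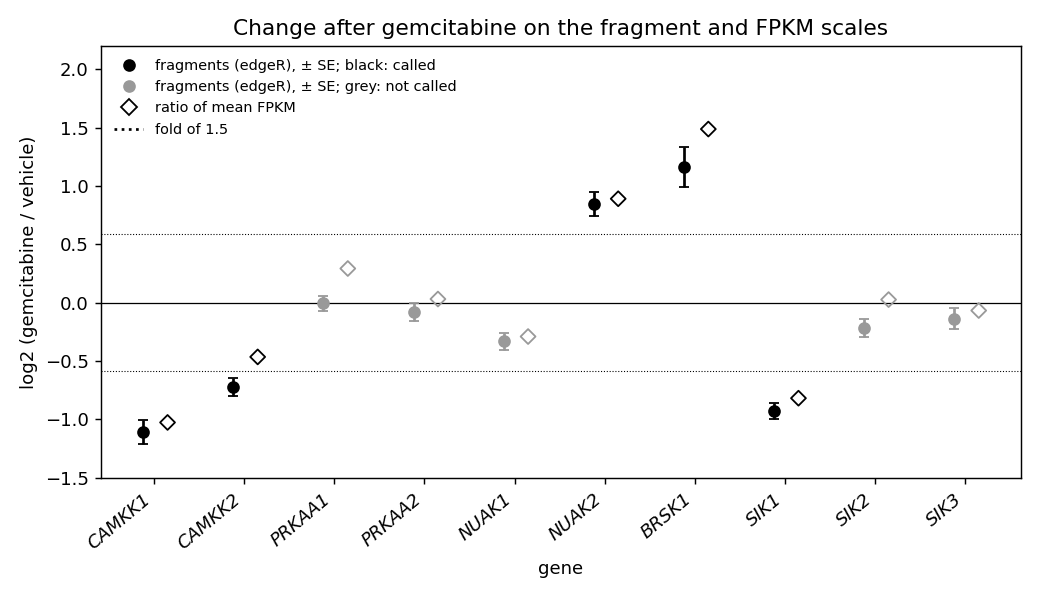
Log2 ratio of gemcitabine to vehicle for each kinase, from fragments with edgeR (circles, bars are the standard error) and from mean FPKM of 2 libraries each (diamonds). Called genes are black and dotted lines mark a fold of 1.5. CAMKK2 lies past the lower line on the fragment scale (-0.72) and inside it on the FPKM scale (-0.46), and PRKAA1 moves from -0.01 to 0.29.

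The genes around these kinases were followed in 9 lists with 66 genes, of which 61 were tested. These genes are no members and carry edgeR's adjusted p over all genes tested. The lists were chosen with earlier results of these data known, so these p-values sort the genes and give no independent support. Of the 61, 2 were called higher and 4 lower, against 5.69% and 4.43% of all genes. By the adjusted p alone, 13 were higher and 14 lower, where the shares of all genes were 18.5% and 20.0%. The median log2 fold change over the 61 genes was 0.05.

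No gene was called among the 5 of the LKB1 complex, the 4 tested AMPK beta and gamma subunits or the 9 other AMPK-related kinases. STK11, which encodes LKB1 itself, was low, with a mean of 1.29 FPKM in vehicle and 3.05 FPKM in gemcitabine, and its log2 fold change was 0.70 (SE 0.28, edgeR adjusted p = 0.0616). CAB39, the scaffold of the LKB1 complex and its highest gene, had a log2 fold change of -0.09 (SE 0.07, edgeR adjusted p = 0.378). PRKAG1, a gamma subunit of AMPK, was the highest of the regulatory subunits at 130 FPKM in both conditions, with a log2 fold change of -0.14 (SE 0.07, edgeR adjusted p = 0.113). MELK, a mitotic member of the AMPK-related family, was the highest of the other kinases, and its log2 fold change was 0.31 (SE 0.07, edgeR adjusted p = 0.00188), below the fold limit. The medians of the lists were 0.01, 0.15 and 0.06.

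Calmodulin is the calcium sensor that the CAMKK enzymes need. None of the 9 tested genes of calmodulin and the CaM kinases was called, and their median log2 fold change was 0.06. CALM2, the highest of them, had a log2 fold change of 0.18 (SE 0.07, edgeR adjusted p = 0.0531). By the adjusted p alone 2 of the 9 were higher and none lower, where the shares of all genes were 18.5% and 20.0%. PRKAG3, CAMK1G, CAMK2A and CAMK2B had too few fragments to be tested.

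Among the sestrins, stress proteins that act upstream of AMPK and mTORC1, and the folliculin complex, all 6 genes had positive fold changes, with a median of 0.42 against 0.01 over all genes. Of these 1 was called, SESN2, which is induced by several forms of cell stress. Its FPKM was 2.56 and 2.88 in vehicle and 5.59 and 5.26 in gemcitabine, and both treated libraries were above both vehicle libraries. The log2 fold change of fragments was 0.88 (SE 0.13, edgeR adjusted p = 0.000105). SESN2 was not called by limma on log2(FPKM + 1) without a minimum FPKM (0.79) or on log2(FPKM + 0.1) (0.97). By the adjusted p alone 5 of the 6 were higher, all but FNIP2, where the share of all genes was 18.5%. This list was chosen with earlier results known, so nothing is read from these counts.

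The genes of proteins these kinases act on came next. None of the 10 tested AMPK substrates, 7 SIK substrates or 2 genes of myosin phosphatase was called, with medians of -0.06, -0.01 and -0.13. MFF, a mitochondrial fission factor, was the highest AMPK substrate, with a log2 fold change of -0.23 (SE 0.07, edgeR adjusted p = 0.0111). HDAC7 was the highest SIK substrate, at -0.01 (SE 0.07, edgeR adjusted p = 0.896), and PPP1CB the higher of the phosphatase genes, at -0.23 (SE 0.07, edgeR adjusted p = 0.0226). Within the SIK substrates the adjusted p alone was met by HDAC5 on the higher side and by CRTC3 and HDAC4 on the lower side.

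The CREB target genes, whose coactivators the SIKs restrain, held most of the called genes of the lists. Of 9 tested, 4 were called lower and 1 higher, with a median log2 fold change of -0.51. Because this list was also chosen with earlier results known, nothing is read from these counts. NR4A1 and NR4A2 encode orphan nuclear receptors of the immediate-early response. NR4A1 had 250 and 236 FPKM in vehicle and 175 and 191 FPKM in gemcitabine, a log2 fold change of fragments of -0.66 (SE 0.07, edgeR adjusted p = 7.10e-06). NR4A2 had 13.0 and 14.4 FPKM in vehicle and 7.47 and 10.1 FPKM in gemcitabine, a log2 fold change of -0.78 (SE 0.09, edgeR adjusted p = 1.38e-05). Both receptors were lower in each treated library than in either vehicle library.

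DUSP1, a phosphatase of MAP kinases, fell by 0.66 on the log2 scale of fragments (SE 0.07, edgeR adjusted p = 3.41e-06), from 129 and 121 FPKM in vehicle to 83.2 and 89.8 FPKM. PPARGC1A, a coactivator of mitochondrial genes, had 5.19 and 3.43 FPKM in vehicle and 2.81 and 2.62 FPKM in gemcitabine, a log2 fold change of -0.73 (SE 0.12, edgeR adjusted p = 0.000309). CREM went the other way. It encodes a relative of CREB whose short forms repress the same elements, and it had 63.9 and 65.1 FPKM in vehicle and 121 and 115 FPKM in gemcitabine, a log2 fold change of 0.80 (SE 0.08, edgeR adjusted p = 3.29e-06). Without the second vehicle library NR4A1 was no longer called (-0.57), and without the first PPARGC1A was not (-0.78, with a difference of means under 1 FPKM). Scaling by library totals ended the calls of NR4A1 (-0.55) and DUSP1 (-0.55), and none of the 4 lower genes was called by any of the 3 limma fits on FPKM, while CREM was called in 2 of them.

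**Figure D4:**
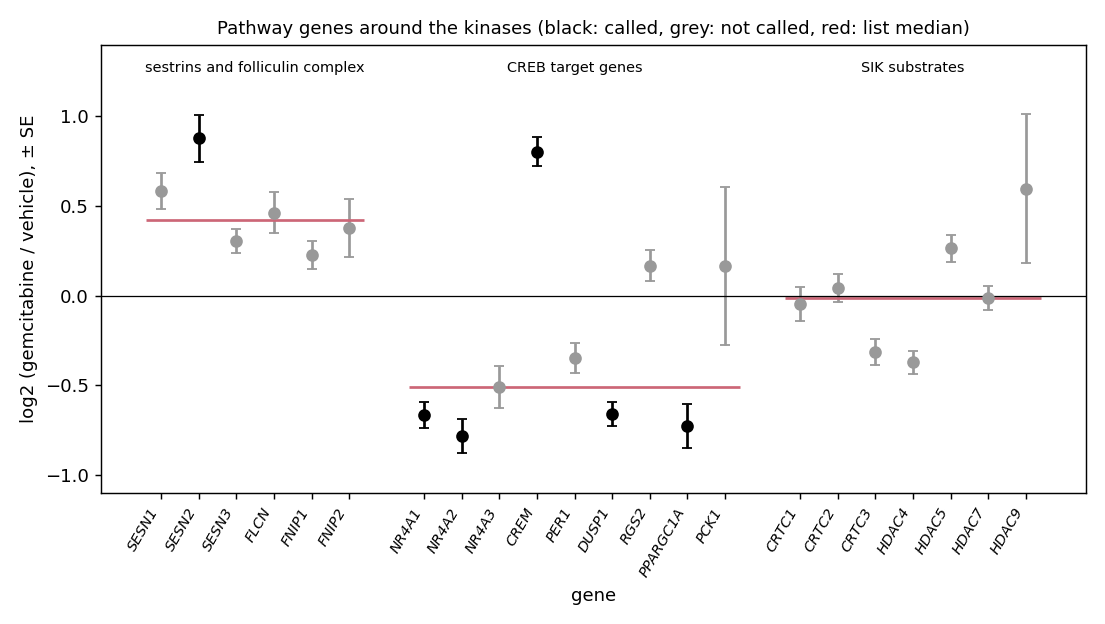
Log2 fold change of fragments with its standard error (edgeR) for the tested genes of the sestrin and folliculin list, the CREB targets and the SIK substrates; black points were called and red lines are list medians. The CREB targets NR4A1, NR4A2, DUSP1 and PPARGC1A lie below -0.6 and CREM at 0.80, and the SIK substrates spread around a median of -0.01.

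Open chromatin near the start sites of the kinases was read from the DNaseI peaks. The deposited DNaseI lists hold 9606 peaks for vehicle and 10695 for gemcitabine. A vehicle peak lay within 5 kb of a start site for 2 of the 10 kinases, against 31.7% of 14154 genes, and a gemcitabine peak for 1 of the 10, against 36.6%. A peak shared by both lists was near 1 of the 10, against 23.3%. Each count was below the share over all genes, but with 10 genes such a difference cannot be judged, and it was not tested. The other 8 kinases, CAMKK1, CAMKK2 and SIK1 among them, had no peak within 5 kb in either list. A missing peak is not evidence of closed chromatin, as SIK1 had none at 126 FPKM in vehicle. The paper added ENCODE peaks of the same line to find more open regions, and those were not used here. The peaks of SIK1 nearest to a start site were 13436 bases away in vehicle and 13364 bases away in gemcitabine. With 1 library in each condition, none of these differences has a replicate check.

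The NUAK2 peak, chr1:205290496-205291384 on hg19, spans 889 bases over the start site and covers the whole NUAK2 promoter sequence printed above, with its 2 CCAAT boxes. It was in the vehicle list, with a score of 64.8 (a score rises as the peak caller's p-value falls, and the median of the list was 71.1), and the nearest gemcitabine peak was 36389 bases from the start. NUAK2, with a peak in vehicle alone, was a gene whose RNA was higher after gemcitabine. For BRSK1 the vehicle peak lay at chr19:55791281-55792076 with a score of 78.8 and the gemcitabine peak at chr19:55791151-55791816 with a score of 71.7, ending 1364 and 1624 bases before the nearest BRSK1 start. Both BRSK1 peaks cover a start site of HSPBP1, the neighbouring gene, so they cannot be assigned to BRSK1 from position alone. PRKAA2 held 1 peak inside its gene body, in the gemcitabine list only, with a score of 69.9. SIK2 was touched by 1 peak, also in the gemcitabine list only, with a score of 56.9. That peak lay at least 128343 bases from the SIK2 start, in a gene of 128407 bases, so it reached only the far end of SIK2.

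For each called kinase the genes with the most similar course over the 4 libraries were found among 12597 genes, by the distance between log2 profiles centred on their mean. CAMKK1 was nearest to NOP56, CAPN15 and PPRC1, with distances of 0.0365 to 0.0878. CAMKK2 was nearest to MTHFD1L, HSP90AB1 and STEAP3, and SIK1 to MBLAC2, RSAD1 and NOL6. NUAK2 was nearest to DUSP10, SLC4A11 and TEX36, and BRSK1 to MST1R, SEC14L2 and CRYBG1. With 4 libraries and 1 contrast, such likeness says little more than that these genes moved by about the same amount, as NOP56 did with a log2 fold change of -1.13 beside -1.11 for CAMKK1. A constant of 0.5 CPM added before the log damps genes of low level, so MBLAC2 is listed beside SIK1 (-0.93) with a log2 fold change of -1.40.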

How the data were processed

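The authors aligned single-end RNA-seq reads to hg19 with TopHat2 2.0.8 and quantified the protein-coding genes of Gencode V 15 with Cuffdiff 2.0.2. Their deposited table holds an estimated count of fragments per gene and library, not normalized (86.8% of values are whole within 1e-06), and FPKM, which the authors obtained from Cuffdiff. Reads mapping to several places are shared between genes, so paralogues can exchange a part of their fragments. Cuffdiff failed on 275 genes in at least 1 library, none of them a member. The 2 columns scaled by Cuffdiff were not used. The deposited DNaseI peak lists, called by the authors with MACS at a p-value of 1e-05 on each condition alone, hold positions and a score.

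Library totals were 13194533 to 15766237 fragments, at which 3 fragments, the limit a count of 0 allows, equal 0.190 to 0.227 CPM (counting error only). Replicates differed by more than counting alone gives (mean chi-square 2.17 a gene in vehicle and 5.16 in gemcitabine) and were kept as separate samples. Counts were rounded, and genes whose 4 libraries summed to 10 fragments or more were fitted with the edgeR 4.0.16 quasi-likelihood test after TMM scaling, with Benjamini-Hochberg adjustment. The standard error is the fold change divided by the root of F. The fits were tested on simulated data. Alternatives were DESeq2 1.42.0, other scalings and filters, limma 3.58.1 on log2 FPKM, leaving out each library, the adjusted p alone, and other limits for peaks.

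The members, gene lists and motifs were chosen with earlier results of these data known. Named genes are all 10 members, every called gene of a list or else its highest by FPKM, and the 3 genes nearest in profile to each called member. STK11, BRSK2, FNIP2, HDAC5, CRTC3 and HDAC4, and the genes too low to be tested, were named after their values were seen. ACACA and PECAM1 were not matched in the table. Gene positions and start sites are from Gencode v44 lifted to hg19, a later annotation than the authors used.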

Additional observations from a re-analysis of the deposited data

How the results depend on the processing

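No paired analysis was possible because the index that tells the libraries apart in the deposited table has no stated link to the numbering in the labels. Leaving out 1 library assumes that the lone library of that condition varies like the others. It gave 674 to 923 genes called higher and 594 to 771 lower over all genes (845 and 658 with all libraries), 2 kinases higher and 3 lower every time, and 2 to 4 genes of the pathway lists higher and 3 to 5 lower. DESeq2, DESeq2-type size factors and both other count filters left each of these counts within 1.5 times.

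With library totals, which move the median log2 fold change of all genes from 0.01 to 0.12, 417 genes were called lower over all genes and the pathway lists gave 4 higher and 2 lower, with the same 5 kinases called. With limma the calls depended on the filter and the constant added to FPKM. On log2(FPKM + 1) with a minimum of 0.1 FPKM, 293 genes were called lower and 0 of the pathway lists lower, and CAMKK2 was not called (-0.44). Without that minimum 95 genes were called higher and 32 lower, 0 kinases either way, and 1 and 0 genes of the lists. On log2(FPKM + 0.1) it was 100 and 13 genes, 0 kinases and 0 genes of the lists, where CAMKK1 was at -1.01 and BRSK1 at 1.51. The adjusted p alone gave 2750 genes higher and 2975 lower, 5 kinases lower (NUAK1 and SIK2 added), and 13 and 14 genes of the lists.

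Over 12 alternatives on the same 4 libraries, which also served to choose the kinases and so give no independent support, CAMKK1 lay between -1.17 and -0.86, CAMKK2 between -0.79 and -0.44, NUAK2 between 0.76 and 0.95, BRSK1 between 1.12 and 1.51 and SIK1 between -0.97 and -0.81. Among kinases not called, PRKAA1 was above 0 with library totals (0.11), with no filter (0.0013), with edgeR's filter (0.0048), without vehicle library 2 (0.0301), without gemcitabine library 2 (0.02) and with limma (0.29 each time). PRKAA2 was above 0 with library totals (0.0297) and with limma (0.0263, 0.0263 and 0.0309), and SIK2 with limma (0.0278, 0.0278 and 0.0293). Among other genes not called, CAB39 turned positive with library totals (0.0242) and with limma (0.0947, 0.0947 and 0.0973), PRKAG1 with limma (0.0033 each time), and HDAC7 with library totals (0.0968), with limma (0.25, 0.25 and 0.26) and without vehicle library 2 (0.0017) or gemcitabine library 1 (0.0267), while leaving out each library gave it -0.050 to 0.0267.

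For peaks, a limit of 1 kb left 1 kinase with a vehicle peak, 0 with a gemcitabine peak and 0 with a shared one. The shares over all genes were then 27.8%, 32.2% and 20.6%. A score of at least 100 left 0 kinases in each, against 8.99%, 11.1% and 5.62% of all genes, and nothing is read from these counts. An overlap of at least 50% of the shorter peak left the counts as they were. DNaseI-seq without replicates and fragments of BRSK1 under 150 per library set the precision of those values.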
